A study of Mus musculus with 4 samples.

Results

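MAP kinase phosphatases are enzymes that switch off the MAP kinases ERK, JNK and p38 by removing phosphate from both the threonine and the tyrosine of the kinase activation loop. Their genes, named Dusp for dual-specificity phosphatase, are often induced by the same kinase pathways that the proteins then restrain, so the family forms a feedback brake. In B cells the kinases lie downstream of the antigen receptor, CD40 and Toll-like receptors. Transcripts of 8 such genes, Dusp1, Dusp2, Dusp4, Dusp5, Dusp6, Dusp7, Dusp10 and Dusp16, are described here out of 37646 genes listed. They were taken by symbol, 1 row each, and the group was selected on read counts of these same libraries, in which Dusp1 and Dusp4 had been seen to vary in different orders. Their values between libraries are therefore a description, and no test of a difference was run on them. All 8 passed the low-count filter used for comparisons with other genes, a mean of at least 1 CPM (counts scaled to a common library total), which 12475 genes passed.

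RNA came from splenic cells of C57BL/6 control mice with the genotype YFPstopF/+Cg1Cre/+. In these mice Cre recombinase expressed from the Ighg1 (Cg1) locus switches on a YFP reporter, and the reporter stays on in every descendant of a cell in which Cre was once active. Sheep red blood cells were injected as antigen, again after 20 days, and spleens were taken 10 days after the repeat. Living B220+YFP+ cells were sorted. The labels call them germinal centre B cells and give no ages, and YFP would also be kept by memory and plasma cells descended from a cell with Cre. All 4 libraries belong to this 1 group and are numbered 1 to 4, and the labels do not say whether each came from a separate animal. The spread among libraries 1, 2 and 4 may therefore be technical.

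The libraries held 13777954 to 14629025 counts. All 7 B cell markers and all 10 germinal centre markers exceeded 1 TPM (counts scaled by gene length and library total) in every library. So did all 9 T cell markers, whose summed level was 467, 207, 184 and 403 TPM in libraries 1 to 4. All 6 naive B cell, 6 plasma cell, 5 NK cell and 9 macrophage and monocyte markers passed as well. This line therefore does not tell cell types apart. In bulk RNA a change in the number of cells of a type cannot be told apart from a change in RNA per cell. Library 3 alone carried Y-linked RNA, with Ddx3y at 1307 counts and at most 3 in the others, and Xist at 6 counts against 8689 to 12160. Library 3 thus came from another animal than the rest, and sex cannot be told apart from any other difference of library 3. The titles of libraries 1 and 2 carry neighbouring numbers, as do those of libraries 3 and 4, and the labels do not say whether this marks a cohort or a date.

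The DNA just before the start site is shown for 4 of the genes. Dusp1 had the widest range between libraries, and Dusp5, Dusp10 and Dusp16 each had libraries 3 and 4 above libraries 1 and 2. Windows came from RefSeq on GRCm38.p6, the assembly of the files' mm10 build, and run from 250 bases before to 50 bases after the annotated start, written 5′ to 3′ on the gene's strand. The table held a window for 7 of the 8 genes, and Dusp4 was not matched. The GENCODE M21 annotation also gives Dusp1 and Dusp10 a start far upstream of the window shown. Which start these cells used was not tested. Capitals mark the cAMP response element with any base at the fifth position, and the CArG box.
Dusp1, chr17:26508423-26508722, minus strand: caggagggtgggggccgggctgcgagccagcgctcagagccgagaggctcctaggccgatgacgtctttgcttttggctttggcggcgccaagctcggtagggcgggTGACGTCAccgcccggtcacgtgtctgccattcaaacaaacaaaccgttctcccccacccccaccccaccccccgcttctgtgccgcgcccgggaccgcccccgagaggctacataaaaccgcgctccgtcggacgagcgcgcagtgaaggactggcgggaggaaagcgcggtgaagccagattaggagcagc
Dusp5, chr19:53528895-53529194, plus strand: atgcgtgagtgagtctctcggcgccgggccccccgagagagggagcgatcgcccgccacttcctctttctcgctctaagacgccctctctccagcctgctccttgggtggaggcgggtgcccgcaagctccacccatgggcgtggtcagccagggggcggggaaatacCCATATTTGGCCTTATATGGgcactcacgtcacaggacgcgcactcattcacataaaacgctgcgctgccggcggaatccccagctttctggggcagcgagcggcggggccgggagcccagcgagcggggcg
Dusp10, chr1:184034131-184034430, plus strand: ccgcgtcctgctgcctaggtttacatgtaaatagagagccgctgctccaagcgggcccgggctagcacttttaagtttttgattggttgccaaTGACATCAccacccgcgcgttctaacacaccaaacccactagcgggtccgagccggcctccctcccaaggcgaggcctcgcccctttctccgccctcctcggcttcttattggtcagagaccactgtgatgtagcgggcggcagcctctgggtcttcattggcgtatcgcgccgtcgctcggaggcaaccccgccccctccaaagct
Dusp16, chr6:134792579-134792878, minus strand: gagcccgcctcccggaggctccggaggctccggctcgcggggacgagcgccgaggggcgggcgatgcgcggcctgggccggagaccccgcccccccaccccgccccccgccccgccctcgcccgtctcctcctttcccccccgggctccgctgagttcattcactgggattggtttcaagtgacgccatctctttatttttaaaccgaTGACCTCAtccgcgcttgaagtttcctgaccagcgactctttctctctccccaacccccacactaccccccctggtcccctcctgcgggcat

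Searched on both strands, the full cAMP response element TGACGTCA, the binding sequence of CREB and ATF factors, was found in the window of Dusp1, 143 to 136 bases before the start. It occurred in 1.79% of all 32851 windows. With any base at the fifth position, TGACNTCA, which includes the full element, was found in Dusp1, in Dusp10 as TGACATCA and in Dusp16 as TGACCTCA, against 8.83% of all windows. Dusp5 held a pair of CArG boxes, the binding sequence of serum response factor, from 82 to 63 bases before the start, and such a box was found in 1.63% of all windows. The E-box CACGTG was found in Dusp1 and Dusp2 and in 7.15% of all windows, and TGANTCA, bound by AP-1, in none of the 7 and in 7.81% of all. The motifs were chosen after the sequences had been read, a match is a description of letters and not of binding, and Dusp6 and Dusp7 held none of those searched.

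Every one of the 8 genes was expressed, above 1 TPM in all 4 libraries, but their levels covered a wide span. The share of all genes above that line was not computed, so this count is a description only. By mean level Dusp2 and Dusp1 stood far above the others, Dusp10, Dusp5, Dusp4 and Dusp6 formed a middle tier, and Dusp7 and Dusp16 were the lowest. TPM divides counts by gene length, so these levels can be set against each other. The nuclear, inducible enzymes are Dusp1, Dusp2, Dusp4 and Dusp5. Their mean log2(TPM + 1) lay above that of the cytoplasmic ERK phosphatases Dusp6 and Dusp7 by 1.70, 2.10, 2.32 and 2.70 in libraries 1 to 4, on average 2.21 ± 0.42 (SD, n = 4), which is 4.61-fold on that scale. This is a difference of group means, and not every gene shared it: Dusp4 and Dusp5 each lay below Dusp6 in libraries 1 and 2. Gene coordinates are those of GENCODE M21 on GRCm38.

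Dusp2 (chromosome 2, 127336159 to 127338376, plus strand) encodes a nuclear phosphatase found mainly in activated leukocytes. It had 241, 331, 322 and 285 TPM in libraries 1 to 4, a mean of 295 ± 40.9, and 98.2% of genes past the filter had a lower mean TPM. Its coefficient of variation was 13.9%, with library 1 the lowest.

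Dusp1 (chromosome 17, 26505590 to 26562128, minus strand) encodes a nuclear phosphatase that acts on p38 and JNK and also on ERK, and its gene is a classic immediate early gene. It had 260, 409, 108 and 207 TPM in libraries 1 to 4, with a mean of 246 ± 126. Library 2 was the highest, and library 3 lay well below every other. Dusp2 exceeded Dusp1 in libraries 3 and 4 while Dusp1 exceeded Dusp2 in libraries 1 and 2, so their order did not hold beyond the spread (mean log2 difference 0.41 ± 0.84). The GENCODE M21 annotation gives Dusp1 transcripts that start far upstream and an exon union of 3311 bases, and with the longest transcript (2313 bases) as length its mean was 307 TPM and that of Dusp2 316 TPM. Its exons share 11 bases with Ergic1 on the other strand (1044 to 1325 counts), and the strand setting of the counting was not given.

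**Figure D1:**
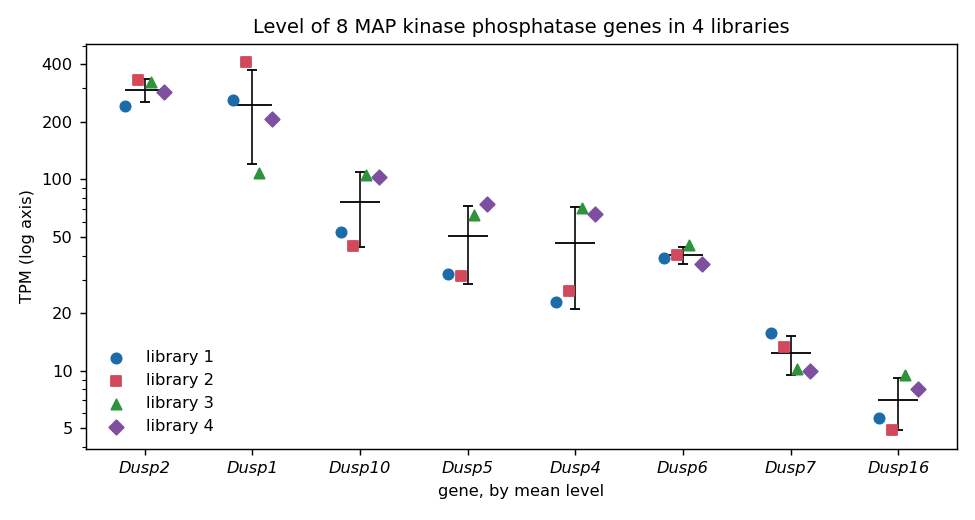
TPM of the 8 genes (log axis), ordered by mean level; symbols are libraries, horizontal bars the mean and vertical bars ± 1 SD over 4 libraries. Dusp2 lies between 241 and 331 TPM in every library, whereas Dusp1 spreads from 108 to 409 TPM.

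Dusp4 (chromosome 8, 34807297 to 34819894, plus strand) encodes a nuclear phosphatase related to Dusp1 that acts on ERK and JNK. It had 22.8, 26.2, 71.3 and 65.8 TPM in libraries 1 to 4 (mean 46.5 ± 25.6). Dusp5 (chromosome 19, 53529109 to 53542431, plus strand) encodes a nuclear phosphatase selective for ERK, and had 31.96, 31.4, 65.2 and 74.1 TPM in the same libraries (mean 50.7 ± 22.2). In both genes libraries 3 and 4 stood clearly above libraries 1 and 2. Dusp5 was the higher of the pair in 3 of 4 libraries, by 0.20 ± 0.26 log2, which is within the spread. An antisense gene overlaps 547 exonic bases of Dusp5 but had at most 3 counts in any library.

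Dusp6 (chromosome 10, 99263231 to 99267489, plus strand) encodes the cytoplasmic phosphatase of ERK and is itself a common readout of ERK activity in many cells. It had 38.7, 40.3, 45.6 and 36.3 TPM in libraries 1 to 4, the steadiest of the 8 genes (mean 40.2 ± 3.94). Dusp6 lay above Dusp4 in libraries 1 and 2 and below it in libraries 3 and 4. Dusp7 (chromosome 9, 106368632 to 106375724, plus strand), the other cytoplasmic ERK phosphatase gene, had 15.8, 13.4, 10.2 and 9.97 TPM (mean 12.3 ± 2.78). Dusp7 stayed below Dusp6 in 4 of 4 libraries, 3.31-fold on average, and was higher in libraries 1 and 2 than in libraries 3 and 4.

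Dusp10 and Dusp16 encode phosphatases that prefer JNK and p38. Dusp10 (chromosome 1, 184013302 to 184075636, plus strand) had 52.9, 45.1, 105 and 103 TPM in libraries 1 to 4 (mean 76.6 ± 32.1). Dusp16 (chromosome 6, 134715468 to 134792625, minus strand) had 5.70, 4.88, 9.48 and 8.08 TPM (mean 7.03 ± 2.12), and 35.9% of genes past the filter had a lower mean TPM. As in Dusp4 and Dusp5, libraries 3 and 4 were the highest for both. Dusp10 exceeded Dusp16 by a ratio of 9.29, 9.23, 11.1 and 12.8 in libraries 1 to 4. The exon union of Dusp16 is long (7798 bases), and with its longest transcript as length the mean was 9.28 TPM. In the order of levels, Dusp10 exceeded its lower neighbour Dusp5 in 4 of 4 libraries, by 0.61 ± 0.12 log2. Dusp1 over Dusp10 (1.63 ± 1.39) and Dusp7 over Dusp16 (0.83 ± 0.73) also kept their order in 4 of 4 libraries, though library 3 held differences of only 0.04 and 0.11.

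The summed level of the family changed less than its make-up. The 8 genes together had 669, 901, 738 and 790 TPM in libraries 1 to 4. Dusp1 made up 38.9%, 45.4%, 14.7% and 26.2% of that sum, and Dusp2 36.1%, 36.7%, 43.7% and 36.1%. Dusp1 had the larger share of the pair in libraries 1 and 2, and Dusp2 in libraries 3 and 4. In library 3 the share of Dusp10, 14.3%, was close to that of Dusp1. The JNK and p38 phosphatase genes Dusp10 and Dusp16 together gave 8.75%, 5.55%, 15.6% and 14.1% of the sum. The cytoplasmic pair gave 5.85 to 8.14%.

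**Figure D2:**
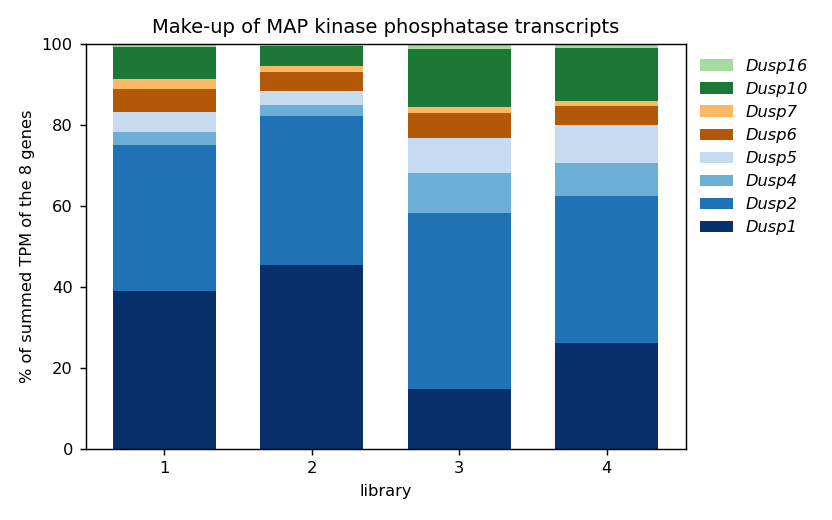
Stacked bars give each gene's percent of the summed TPM of the 8 genes in each library (1 bar a library, 100% in all). The Dusp1 part shrinks to 14.7% in library 3, and the parts of Dusp4, Dusp5 and Dusp10 are larger in libraries 3 and 4 than in libraries 1 and 2.

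To compare libraries for each gene, counts were scaled to CPM with TMM factors, which set the bulk of genes equal. Dusp1 had 392, 680, 141 and 296 CPM in libraries 1 to 4, a 4.82-fold range between the highest and the lowest. The exact (Clopper-Pearson) 95% counting interval of Dusp1 lay within 4.36% of the value in every library, so the range far exceeds counting error, which is all that such intervals cover. Dusp4 had 28.4, 36.1, 76.9 and 77.7 CPM, a 2.74-fold range with libraries 3 and 4 above libraries 1 and 2, the pair in which Dusp1 was higher. On the TPM scale, whose total is shaped by other genes, the ranges were 3.78-fold for Dusp1 and 3.13-fold for Dusp4. Both orders, libraries 2, 1, 4, 3 for Dusp1 and libraries 4, 3, 2, 1 for Dusp4, were the same with total-count CPM, DESeq2 size factors and a total without mitochondrial and immunoglobulin genes. The Dusp1 range rested on 2 libraries: it was 2.81-fold without library 2 and 2.30-fold without library 3.

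The ratio of Dusp1 to Dusp4 in TPM was 11.4, 15.6, 1.52 and 3.15 in libraries 1 to 4. Dusp1 exceeded Dusp4 in every library, but by a ratio that itself spanned 10.3-fold. The ratio of Dusp5 to Dusp10, in contrast, stayed between 0.604 and 0.718.

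**Figure D3:**
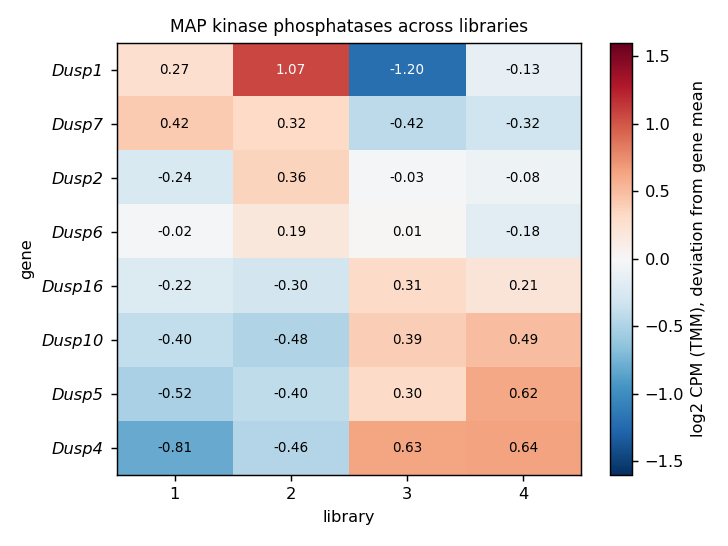
Log2 CPM (TMM) of each gene minus its own mean over the 4 libraries; rows are genes, columns libraries, red above and blue below the mean. Dusp1 is highest in library 2 (1.07) and lowest in library 3 (-1.20), while Dusp4, Dusp5, Dusp10 and Dusp16 are above their mean in libraries 3 and 4 only.

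Of the 8 genes, 3 had a range of at least 2-fold between libraries, Dusp1, Dusp4 and Dusp5 (2.20-fold), against 20.5% of the 12475 genes. Among 8346 genes with a mean of at least 10 CPM, as all 8 have, 7.03% did. The variation was among the values that chose the group, so nothing is read from the comparison. The median range was 1.88-fold for the 8 genes and 1.44-fold for all genes past the filter. Dusp10 lay just under the line at 1.97-fold, and just over it with total-count CPM (2.14-fold), and it also reached the line when mitochondrial and immunoglobulin genes were left out of the total. Dusp5 was at 1.77-fold without library 4. Dusp7 (1.79-fold), Dusp16 (1.52-fold), Dusp2 (1.52-fold) and Dusp6 (1.29-fold) ranged less.

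**Figure D4:**
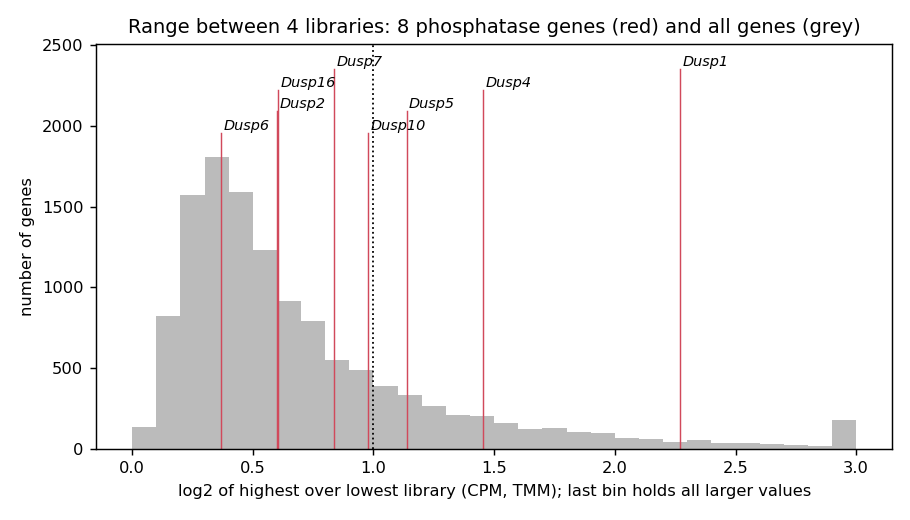
Histogram of the log2 ratio of the highest to the lowest library for all 12475 genes (grey, CPM with TMM; the last bin holds larger or undefined ratios), with the 8 genes as red lines and 2-fold as a dotted line. Dusp1 lies far in the right tail, where 96.9% of genes have a smaller range, and Dusp6 lies left of most, with 30.6% of genes below it.

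Dusp4, Dusp5 and Dusp10 had both library 3 and library 4 at least 1.5-fold above the higher of libraries 1 and 2, which held for 1.22% of all genes past the filter. Dusp16 had the same split of libraries by less than that fold, with 29.1 and 27.2 CPM in libraries 3 and 4 and 20.2 and 19.1 CPM in libraries 1 and 2. Dusp7 went the other way, at least 1.5-fold lower in libraries 3 and 4, as 2.34% of all genes were. This line was drawn after the values had been seen. The 3 genes were the same under each of the 3 other scalings. As measured by the root mean square difference of log2 deviations, Dusp5 and Dusp10 were the closest pair of the 8 genes (0.11), followed by Dusp2 and Dusp6 (0.15), and Dusp1 and Dusp4 the farthest apart (1.37).

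The genes whose pattern over the 4 libraries came closest to Dusp1, among 8344 with a mean of at least 10 CPM and a count in every library, were headed by Fos, an AP-1 transcription factor gene and a prototype immediate early gene. Fos had 901, 1767, 313 and 674 CPM in libraries 1 to 4 (root mean square difference 0.09 log2). Chst1, a sulfotransferase gene, Gm37194, the kappa V segment Igkv8-24 and the linker histone gene H1f4 followed at 0.15 to 0.19. Closest to Dusp4 was Dusp14, an atypical member of the dual-specificity phosphatase superfamily, with 7.13, 8.75, 20.6 and 21.9 CPM (0.08). Next to Dusp4 came Fnip1, whose product binds folliculin, Ier5l, the transcription factor gene Ets2 and E030022I16Rik, at 0.13 to 0.14. With only 4 libraries, close matches among so many genes are easily found, and likeness of pattern is given as a description.

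The immediate early genes, early targets of the MAP kinase pathways, varied widely between libraries. Of 15 genes, 11 had a 2-fold range, against 20.5% of all genes. Junb, an AP-1 gene, had the highest level of the list (1051, 1497, 836 and 1091 TPM in libraries 1 to 4). Jun, another AP-1 gene, had 601, 1123, 197 and 496 TPM, and Egr1, a zinc finger factor gene, 213, 515, 152 and 191 TPM. In these and in Fos, Fosb and Zfp36, an mRNA decay factor gene, library 2 was the highest, as in Dusp1. Of the 15 genes, 11 were nearer in pattern to Dusp1 and 4 nearer to Dusp4. The 4 were Nr4a1, Egr2, Egr3 and Atf3, named after their values were seen, and library 1 was the lowest in each, as in Dusp4. Library 2 was the highest for Egr2, Egr3 and Atf3, as in Dusp1, and Ier5 and Myc, counted as nearer to Dusp1, had that same order of libraries. Every gene was placed with 1 of the 2, also where neither was close. Atf3 differed from Dusp1 by 1.11 and from Dusp4 by 0.76 (root mean square, log2), and Myc by 0.64 and 0.77. The share of all genes nearer to Dusp1 was not computed, so the split is a description only. Without library 2 the number of genes of all pathway lists with a 2-fold range was 11, against 20 of 65 with all libraries. The share of all genes past the filter fell as well, from 20.5% to 15.4%.

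**Figure D5:**
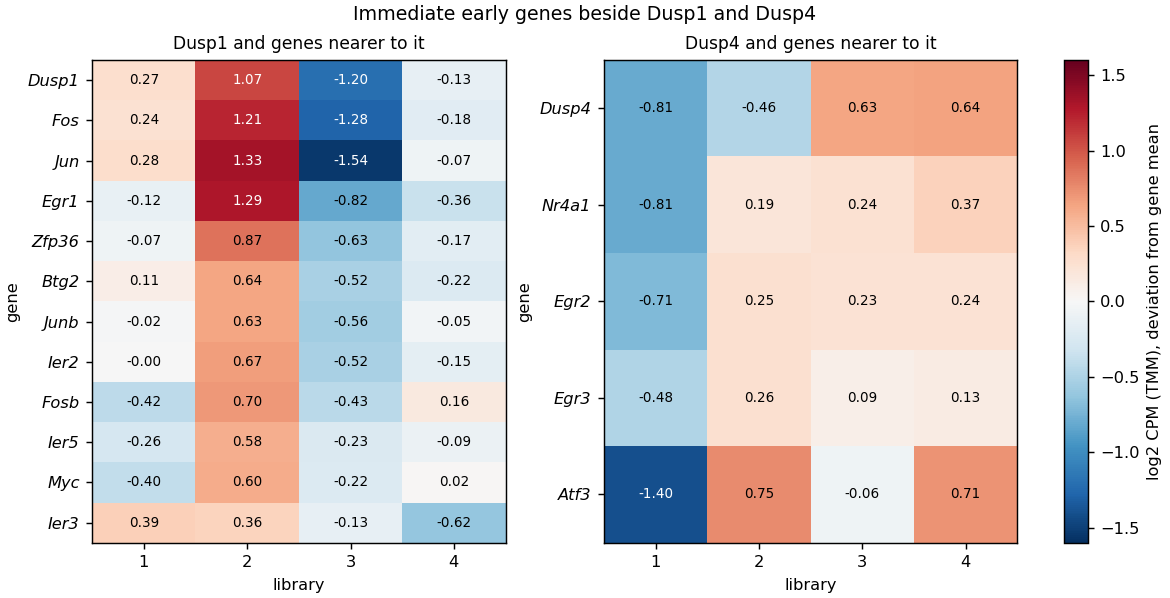
Log2 CPM (TMM) of each gene minus its own mean, by library, for Dusp1 with the 11 immediate early genes nearer to it (left) and Dusp4 with the 4 nearer to it (right), ordered by nearness. Fos and Jun have the same order of libraries as Dusp1, whereas Nr4a1 (-0.81 in library 1, 0.37 in library 4) shares with Dusp4 a low value in library 1.

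The MAP kinases, on which the phosphatases act, and the kinases upstream of them were steadier as a group than the immediate early genes. Of 27 genes of MAP kinases and their upstream kinases, 25 passed the filter, 8 of them MAP kinases and 17 upstream kinases. A 2-fold range was found in 0 of the 25, against 20.5% of all genes. Among genes with a mean of at least 10 CPM, as all of the 25 but Mapk12 have, the share was 7.03%. With 25 genes, 0 is not read as differing from that share. Their median range was 1.25-fold and the widest, that of Mapk12, named after its value was seen, 1.99-fold. The p38 genes Mapk11 (60.3 ± 12.1 TPM) and Mapk14 (53.5 ± 5.89 TPM) and the ERK gene Mapk3 (54.1 ± 10.9 TPM) were the highest of the MAP kinases. Among upstream kinases Map2k1 (79.1 ± 6.66 TPM) and Map2k2 (58.0 ± 4.27 TPM), which activate ERK, and Map3k11 (71.2 ± 5.44 TPM), which acts towards JNK, led. The mean TPM of Dusp1 and of Dusp2 exceeded that of every kinase of the lists.

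Of the remaining family members, Dusp8, a relative of Dusp10 and Dusp16, had 0.446, 1.38, 1.71 and 1.94 TPM in libraries 1 to 4, and Dusp9, a relative of Dusp6 and Dusp7, 0.390 ± 0.268 TPM. Styxl1, an inactive relative, had 2, 5, 5 and 0 counts. Of 13 atypical dual-specificity phosphatases 12 were listed and 9 passed the filter. Of the 9, 3 had a 2-fold range, against 20.5% of all genes: Dusp14 (17.5 ± 10.4 TPM), Dusp18 (1.96 ± 1.07 TPM) and Dusp28 (7.41 ± 2.84 TPM). Counts were low for Dusp18 (32 to 106) and Dusp28 (45 to 98). Dusp11, which acts on RNA, was the highest of the atypical genes at 38.8 ± 4.22 TPM, within the spread of Dusp6. Among 7 Sprouty and Spred genes, which encode inhibitors of the path to ERK, 6 were listed. Of the 6, 3 had a 2-fold range, against 20.5% of all genes: Spry2 (5.68 ± 2.11 TPM), Spred1 (3.70 ± 1.70 TPM) and Spred3 (2.04 ± 0.77 TPM). Counts were low for Spry2 (39 to 104) and Spred3 (46 to 111) too. Spred2, at 4.80 ± 0.78 TPM, ranged less.

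Several measures were highest or lowest in the same library as Dusp1. The share of mitochondrial counts was 20.6%, 23.3%, 18.1% and 19.8% in libraries 1 to 4, the same order as Dusp1. The share of immunoglobulin counts, 5.25%, 5.48%, 2.35% and 4.25%, had that order too. The summed level of 6 naive B cell markers was also highest in library 2 (1577, 2803, 2057 and 2146 TPM), where the sum of 10 germinal centre markers was lowest (1964, 1369, 2366 and 1747 TPM). Library 3, with the lowest Dusp1, had the lowest sum of 6 plasma cell markers (1932, 1788, 954 and 1825 TPM). The heat shock genes, a stress readout, were led by Hspa8, Hsp90aa1 and Hspd1. A 2-fold range, seen in 20.5% of all genes, was found in 2 of the 9 that passed the filter. These were the near-identical pair Hspa1a (42.1, 21.5, 4.86 and 28.4 TPM) and Hspa1b (62.1, 30.4, 9.43 and 48.6 TPM), lowest in library 3 like Dusp1 but highest in library 1. The T cell marker sum was highest in libraries 1 and 4, unlike any of the 8 genes. Of 8 neutrophil markers (216.5, 141, 137 and 315 TPM in sum) Elane was at 0 in libraries 1 and 3 and Retnlg at 0 in library 1. Elane (0, 41, 0 and 6 counts in libraries 1 to 4) and Mpo (3, 116, 2 and 43 counts) were highest in library 2. S100a9 and Ngp, the largest parts of the sum, were highest in library 4. The part of cell make-up, mitochondrial RNA or stress in the levels of the phosphatase genes was not tested.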

How the data were processed

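Each library has 1 table of raw counts, deposited by the authors as whole numbers per gene with no normalisation. Reads were handled with FastQC, STAR 2.5.2b and featureCounts 1.6.0 on mm10, per the submitters' processing notes. Which annotation release was counted, whether strand was used and how multi-mapping reads were treated is not given in the sources used here. Per the labels, poly(A)-selected RNA was read as single reads of 50 nt, with 20 M reads planned.

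TPM was computed from the counts with the exon union of each gene in GENCODE M21 (GRCm38), which matched 37536 of 37646 identifiers. CPM was scaled by TMM in edgeR 4.0.16 (R 4.3.3), and by DESeq2 1.42.0 size factors as an alternative. A range is the highest over the lowest library. No test of a difference was run: there is 1 group, and the members and gene lists were chosen with earlier results of these data known. Dixon's outlier criterion for 4 values (0.829) was applied to 59 measures over the libraries. The range and likeness steps were checked on simulated counts that varied by counting error only, with a known pattern put into some genes. Such counts lack the spread between real libraries, so the check covers the working of the steps only.

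The text names all 8 phosphatases, the 3 highest genes of each pathway list, up to 6 of each list with a 2-fold range, and the 5 genes closest in pattern to Dusp1 and to Dusp4. Other genes (Ddx3y, Xist, Ergic1, Mapk12, Egr2, Egr3, Nr4a1, Atf3, Ier5, Myc, Elane and Retnlg) were named after their values were seen. A count of 3 corresponds to 0.205 to 0.218 CPM. Exact counting intervals of the 8 genes lay within 14.8% of the value. They cover counting error only, since PCR copies cannot be told apart in these counts.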

Additional observations from a re-analysis of the deposited data

Results flagged for a closer look

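Of 59 measures checked over the 4 libraries by Dixon's criterion, 3 had 1 library far from the others. Chance gives about 1 in 20, so this number is about that of chance. Egr1 stood at 515 TPM in library 2, which was also the library with the highest Dusp1. The summed plasma cell markers stood at 954 TPM in library 3, where Dusp1 was lowest, and the summed erythroid markers at 269 TPM in library 4.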

How the results depend on the processing

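The 8 genes exceeded 1 TPM in every library under each alternative tried: another gene length, another library total, CPM in place of TPM and each library left out. For all genes this share was not computed. The mean over libraries of their median level was 52.3 TPM, and 111 TPM when mitochondrial and immunoglobulin genes were left out of the total, which raises every TPM by construction. With 1 library left out it was 46.5 to 58.0 TPM. The number of the 8 genes with a 2-fold range was 3, against 3 or 4 with other scalings and 2 or 3 with 1 library left out. Of all genes past the filter, 20.5% had such a range. That share was 20.5 to 20.9% with other scalings and 13.7 to 17.2% with 1 library left out. A range of at least 1.5-fold was found in 7 of the 8 and in 43.9% of all genes past the filter. The number of pathway genes with a 2-fold range was 20 with total-count CPM and with DESeq2 size factors too. With 1 library left out it was 11 to 19, lowest without library 2, where the share of all genes was 15.4%. The nuclear minus cytoplasmic difference was 1.90 on the log2(CPM + 1) scale, 2.26 with a pseudocount of 0.1, and 2.04 to 2.37 with 1 library left out. No paired analysis was possible because all libraries belong to 1 group. The depth limits genes such as Styxl1 and Dusp9, which had few counts, and with 4 libraries of 1 group no range can be tied to a condition.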
